A study of Mus musculus with 2 samples.

Results

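The genes described here build ribosomes. They are a list of 40 genes, made of Myc, which encodes an activator of the others, and of 39 genes for RNA polymerase I, nucleolar proteins and ribosome assembly factors. Members were taken by name and found on the array through the RefSeq accession of each probe. The rule uses no measured value, but the list was drawn up with earlier results of these data known. A probe was found for 38 of the 40, and all 38 were well above background on both arrays, beside 12272 (66.6%) of the 18434 named genes. Nop56 and Ltv1 had no probe named by accession and were not analysed here.

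RNA came from CD4 T cells of the spleen of wild type C57BL/6 mice, an inbred laboratory strain, and was read on 1 single-colour array for each of 2 cultures. The cells had a purity above 98% after magnetic sorting, were stimulated for 2 days with antibodies against the T cell receptor and CD28, and were harvested after 3 more days, at day 5. Th9 cultures held IL-4 (10 ng/ml), TGFbeta (3 ng/ml) and an anti-IFNgamma antibody (1 µg/ml). Th9+IFNgamma cultures held IL-4 (3 ng/ml), TGFbeta (3 ng/ml) and IFNgamma (10 ng/ml). Added IFNgamma, the lower dose of IL-4 and the absence of the antibody from the listed mixture came together and cannot be told apart. Neither the number of mice nor the number of cultures behind an array is given in the labels. With 1 array for each culture there is no replicate and no test, so every difference below is a size without a p-value.

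Ribosome production starts in the nucleolus, where RNA polymerase I copies the ribosomal DNA into a long precursor RNA. Small nucleolar ribonucleoproteins (snoRNPs) modify that precursor, processing factors cut it, and assembly factors fold it with ribosomal proteins into the small and the large subunit. T cells are small and poor in ribosomes at rest, and enlarge their nucleoli after stimulation through the T cell receptor. Myc is the best known activator of this programme. It binds DNA as a dimer with Max at the E-box CACGTG, a palindrome that reads the same on both strands.

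The promoter letters of the members are shown first, because the E-box is a site that Myc is known to bind. A RefSeq promoter (GRCm38.p6, 250 bases before to 50 after the transcription start) was found for 35 of the 40 genes, and none was found for Myc, Npm1, Fbl, Rrp12 or Bop1. CACGTG stood in the promoters of 9 of the 35 (25.7%), against 2187 of 27025 genes (8.09%) with a promoter and 1149 of 9866 (11.6%) of those measured on both arrays. In 6 members the motif lay within the 50 bases after the start, a share of 17.1% beside 1.28% of all genes and 1.89% of the measured ones. That narrower window was looked at after the motif positions had been seen. In the windows below, capitals mark CACGTG, with up to 27 bases on either side and an end at base 50 after the start. The first 6 carry it after the start, beginning at base 3 in Pes1, 25 in Tsr1, 35 in Grwd1, 38 in Utp20, 41 in Mybbp1a and 29 in Ltv1. The others carry it before the start, at base -60 in Nop2, -20 in Utp18, and -48 and -215 in Rrn3.
Pes1, chr11:3963950-3964009 (plus strand): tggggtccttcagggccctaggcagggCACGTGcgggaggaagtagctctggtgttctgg
Tsr1, chr11:74898077-74898129 (plus strand): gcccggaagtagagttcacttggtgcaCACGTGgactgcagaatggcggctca
Grwd1, chr7:45830740-45830782 (minus strand): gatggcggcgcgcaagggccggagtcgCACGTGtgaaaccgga
Utp20, chr10:88826765-88826804 (minus strand): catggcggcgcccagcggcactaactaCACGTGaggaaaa
Mybbp1a, chr11:72441340-72441376 (plus strand): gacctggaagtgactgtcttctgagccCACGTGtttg
Ltv1, chr10:13193088-13193136 (minus strand): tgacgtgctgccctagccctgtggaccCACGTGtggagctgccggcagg
Nop2, chr6:125131796-125131855 (plus strand): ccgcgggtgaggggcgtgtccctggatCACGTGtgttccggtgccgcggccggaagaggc
Utp18, chr11:93885754-93885813 (minus strand): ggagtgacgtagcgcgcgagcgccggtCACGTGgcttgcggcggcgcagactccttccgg
Rrn3, chr16:13780624-13780683 (plus strand): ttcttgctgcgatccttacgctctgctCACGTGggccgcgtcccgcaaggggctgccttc
Rrn3, chr16:13780457-13780516 (plus strand): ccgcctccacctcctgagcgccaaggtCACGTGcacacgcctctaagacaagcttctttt
A match says only that these letters are present, and binding of Myc was not measured here.

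The signals of ribosome biogenesis genes were similar in the cultures. Of 38 measured genes, 34 (89.5%) lay within 1.5-fold, as did 71.9% of all 12272 genes. Among the 9494 genes with a scaled signal of at least 100, which include all 38, the share was 76.3%. No member was at least 1.5-fold higher in Th9+IFNgamma, where 12.6% of all genes were. At least 1.5-fold lower were 4 members, Rrp1b, Rrp12, Gnl3 and Npm1, or 10.5% beside 15.5% of all genes and 11.5% of the 9494 genes with a scaled signal of at least 100 on both arrays. At least 2-fold lower were 2 of them (5.26%, with 7.42% of all genes and 4.9% of the 9494 brighter ones) and none was at least 2-fold higher (5.15% of all genes). The shares at least 1.5-fold and 2-fold lower were thus near the background, and the 4 genes are described as single values. Scaled signals are linear intensities once the 75th percentiles of the arrays are made equal, and they serve to compare a gene with itself.

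As a group the listed genes sat slightly lower in Th9+IFNgamma. Their median log2 difference, Th9+IFNgamma minus Th9, was -0.10 (quartiles -0.30 and 0.08), where all genes had -0.01, and with median scaling these medians were 0.014 and 0.11. A higher signal in Th9+IFNgamma was found for 13 of 38 (34.2%), beside 49.6% of all genes, and for 20 of 38 (52.6%), beside 59.1%, with median scaling. The list's median minus that of all genes was -0.094 with either scaling by construction, since both shift every gene alike. It was -0.15 to -0.050 over 11 alternative settings. Single spots of probes printed in several copies had an SD of 0.11 in the log2 difference (133 probes). This spread covers printing and reading of spots and nothing of the spread between mice, cultures or labellings.

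Myc itself was slightly lower in Th9+IFNgamma. Its brightest probe, printed 10 times on each array, read 4955 to 5551 in Th9+IFNgamma (median 5260, mean 5242 ± 185, SD over 10 spots) and 6075 to 6724 in Th9 (median 6447, mean 6457 ± 192). Every Th9 spot was above every Th9+IFNgamma spot, and all 10 pairs of spots at the same position gave a log2 difference below 0, from -0.34 to -0.25. The gene value was 1.23-fold lower (log2 difference -0.30), and 2 further probes gave -0.22 and -0.26. The spots share 1 RNA sample and 1 labelling per culture, so they are no replicates of the culture. Over the alternative settings Myc ranged from -0.36 to -0.19.

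**Figure D1:**
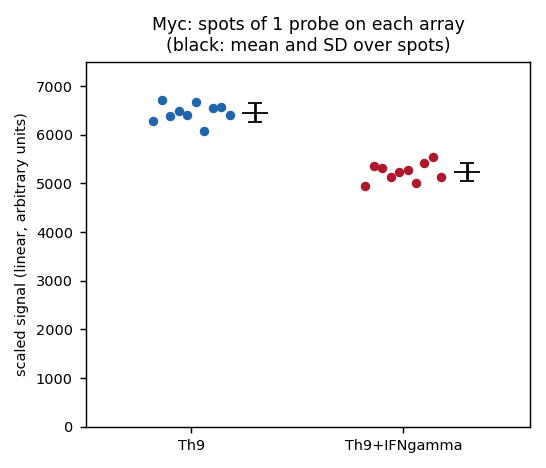
Scaled signal (linear axis from 0, arbitrary units) of each of the 10 spots of 1 Myc probe on the Th9 and the Th9+IFNgamma array, with the mean and SD over spots in black. The 10 Th9 spots (6075 to 6724) lie above the 10 Th9+IFNgamma spots (4955 to 5551).

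Genes of RNA polymerase I, the enzyme that makes the ribosomal RNA precursor, stayed within 1.5-fold, with 4 of 6 above 0 (3 of 6 with loess or normexp) and a median of 0.06. Ubtf, an HMG-box protein that covers active ribosomal DNA, read 8445 in Th9+IFNgamma and 6820 in Th9 (1.24-fold higher), and its other probe gave 0.40 on the log2 scale. Polr1a, the largest catalytic subunit, read 4695 and 3989 (1.18-fold higher). Polr1b, the other large catalytic subunit, went the opposite way, at 912 in Th9+IFNgamma and 1175 in Th9 (1.29-fold lower). The signs of these 3 genes held under all settings, which re-process the same arrays. Polr1a and Polr1b, with 1 probe each, thus read in opposite directions on these arrays, and nothing further was tested. Polr1c, a subunit shared with RNA polymerase III, read 14163 and 16621 (1.17-fold lower). Polr1e read 807 and 760, and Rrn3, the factor that makes the polymerase competent to start, 1774 and 1734. Both differences were smaller than the spot SD, and Rrn3 had -0.01 with loess scaling, below 0.

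Genes of abundant nucleolar proteins included 2 of the 4 past 1.5-fold. All 5 were lower in Th9+IFNgamma, with a median of -0.26 (-0.15 with median scaling, where Nolc1 and Mybbp1a lay above 0 at 0.0055 and 0.05, and -0.11 by the probe of smallest difference, where 1 of 5 was above 0). Gnl3, which encodes the GTPase nucleostemin of the nucleolus of dividing cells, read 1667 in Th9+IFNgamma and 2854 in Th9 (1.71-fold lower, 1 probe). Npm1, which encodes nucleophosmin, a chaperone of the outer nucleolus, read 66640 and 104177 (1.56-fold lower), and its other probe gave -0.81. With median scaling Npm1 had -0.53, short of 1.5-fold, while Gnl3 remained past it at -0.66. Ncl, which encodes nucleolin, an RNA-binding protein of the nucleolus, read 71561 and 85753 (1.20-fold lower). Its 4 probes disagreed, at -0.26, -0.21, 0.06 and 0.44, the last 2 by dimmer probes. Nolc1, a chaperone of snoRNPs, read 7925 and 8547, and Mybbp1a, a nucleolar binding partner of Myb, 3836 and 3999.

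The snoRNP proteins, which carry the guide RNAs for modification of ribosomal RNA, were nearly level between the cultures. In the box C/D particles, which methylate ribose, Fbl, the methyltransferase fibrillarin, read 67782 in Th9+IFNgamma and 59159 in Th9 (1.15-fold higher). Its scaffold partner Nop58 read 9332 and 8589 (1.09-fold higher). Rrp9, a protein of the particle that guides early cuts of the precursor, read 1864 and 2199 (1.18-fold lower). These 3 kept their signs under all settings. In the box H/ACA particles, which make pseudouridine, the 4 proteins ranged only from -0.13 to -0.03, all below 0, with 3 of 4 above 0 under median scaling and 1 of 4 with normexp. Dkc1, the pseudouridine synthase dyskerin, read 762 and 776 and Gar1 1705 and 1868. Nhp2 read 14706 and 15508, and Nop10, the smallest protein of the particle, 7680 and 8181. The core proteins of H/ACA particles thus had the narrowest range among the role groups of several genes.

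Small-subunit factors included one of the widest differences. Rrp12, a repeat protein that helps export of small-subunit precursors from the nucleus, read 424 in Th9+IFNgamma and 869 in Th9, 2.05-fold lower by its 1 probe. That value sat at the limit, with log2 differences from -1.06 to -0.89 over the settings, and was under 2-fold with median scaling (-0.92) and normexp (-0.89). Nob1, the endonuclease that makes the final cut of small-subunit RNA, read 1896 and 2612 (1.38-fold lower). Tsr1, a late assembly factor, read 2017 and 2508 (1.24-fold lower) and its other probe gave -0.41. The only factors above 0 were Bms1, a GTPase of the early processing complex, at 1780 and 1410 (1.26-fold higher, other probe 0.36), and Noc4l at 6982 and 6387 (1.09-fold higher). Nop14, known as the partner of Noc4l, read 2386 and 2758 (1.16-fold lower). Utp18 (1359 and 1406) and Utp20 (1344 and 1409), scaffold proteins of the early processing complex, were within 1.05-fold. The group of 8 had a median of -0.14, and -0.02 with median scaling, where 4 of 8 lay above 0.

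Among large-subunit factors Rrp1b stood apart. Rrp1b, a nucleolar protein of early large-subunit precursors, read 1521 in Th9+IFNgamma and 3332 in Th9 (2.19-fold lower). Its 3 probes gave -1.13, -1.29 and -0.83, all the same way, and over the settings it ranged from -1.18 to -0.83, short of 2-fold with normexp (-0.96) and by the probe of smallest difference (-0.83). Nop2, an RNA methyltransferase, read 15864 and 21382 (1.35-fold lower), and Nop16 read 3230 and 4309 (1.33-fold lower, other probe -0.10). Grwd1, a WD-repeat chaperone, read 1453 and 1735 (1.19-fold lower), with both probes below 0.

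Pes1, Bop1 and Wdr12 form a complex that matures the large subunit, and their brightest probes did not share a direction. Pes1 and Wdr12 each had a dimmer probe of the other sign (1.35 and 0.17), so their directions are not settled. Pes1 read 9690 and 10811, Bop1 8154 and 7547, and Wdr12 2161 and 2640, that is 1.12-fold lower, 1.08-fold higher and 1.22-fold lower. Noc2l (11027 and 10482) and Noc3l (212 and 198), which bind each other in early particles, were both slightly higher. Ebna1bp2 read 18944 and 17608 (1.08-fold higher), and Ftsj3, a methyltransferase of precursor RNA, 2471 and 2442. The group of 11 had a median of -0.16, or -0.04 with median scaling, and 5 of 11 were above 0 with either (3 of 11 with quantile normalization). With the probe of smallest difference the group's median turned to 0.02, with 6 of 11 above 0.

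**Figure D2:**
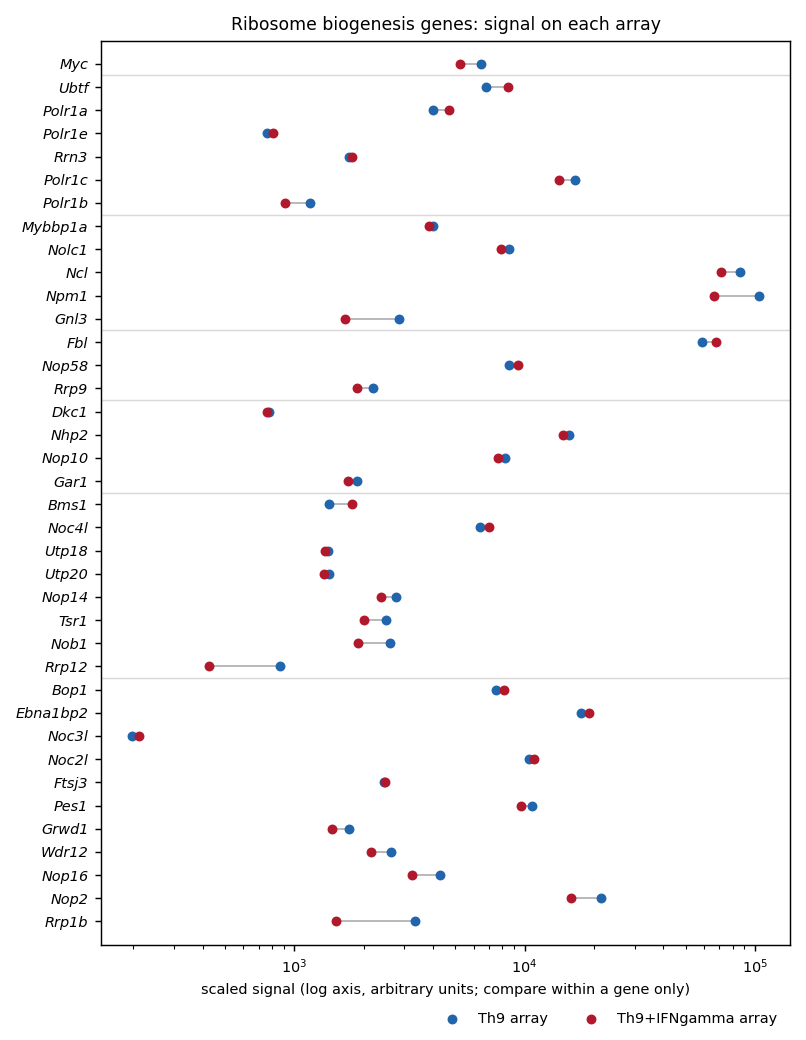
Scaled signal (log axis, arbitrary units) of the 38 measured genes on the Th9 array (blue) and the Th9+IFNgamma array (red), by role and then by difference, 1 array per culture. Most pairs nearly overlap, and the widest gaps are those of Rrp1b (1521 and 3332), Rrp12 (424 and 869), Gnl3 (1667 and 2854) and Npm1 (66640 and 104177).

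Where a gene had several measured probes, they mostly agreed. This was so for 12 of 16 such genes, and Ncl, Wdr12, Pes1 and Ebna1bp2 were the exceptions. The probes of Nolc1 (-0.11 and -0.40) and Nop16 (-0.42 and -0.10) shared a sign but differed in size. Median scaling adds 0.115 to each probe, which splits the signs of both genes. Pes1 was the most divided, with -0.16 by its brighter probe (9690 and 10811) and 1.35 by its dimmer one (1232 in Th9+IFNgamma and 482 in Th9). The mean of both probes, 0.60, made it the only member at least 1.5-fold higher under any of the settings. Wdr12 had -0.29, -0.68 and 0.17, and Ebna1bp2 0.11 and -0.39. What sets the dimmer probes apart was not tested. Per gene, the scanner software's own error of the log2 difference was 0.20 to 0.21, and 19 of 38 differences were larger than it. Among all measured genes the 34th percentile of the difference was -0.21 and the 68th was 0.20. Differences of that size were thus common.

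**Figure D3:**
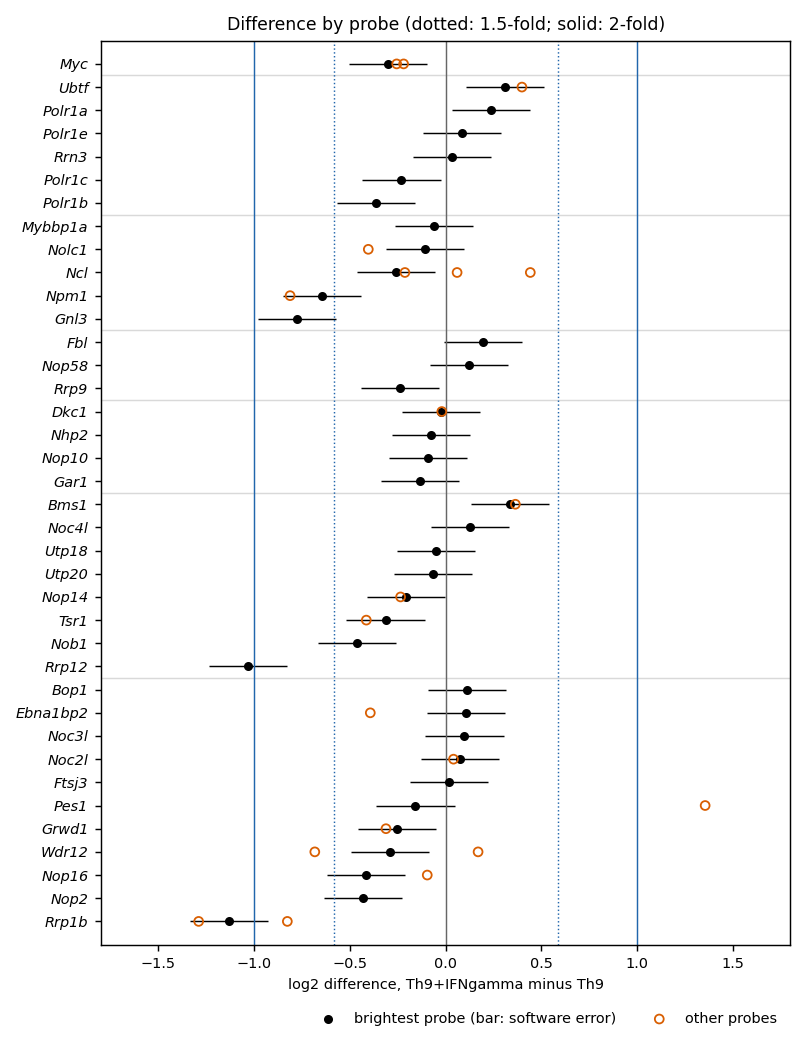
Log2 difference (Th9+IFNgamma minus Th9) of the 38 genes by role, with the brightest probe in black, its software error as a bar and other probes of the same gene as orange circles. Dotted lines mark 1.5-fold and solid lines 2-fold; Rrp1b (-1.13) and Rrp12 (-1.03) pass -1, and the dimmer Pes1 probe (1.35) lies far from its brighter one (-0.16).

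The promoter of the gene with the widest difference, Rrp1b, held no CACGTG, nor did that of Gnl3. The RefSeq table lists 2 promoters for Rrp1b, of which the upstream one is given here with CG dinucleotides in capitals, 10 in 300 bases at 57.3% G and C. That of Gnl3 follows, with 44 CG dinucleotides and 80.3% G and C.
Rrp1b, chr17:32035912-32036211 (plus strand): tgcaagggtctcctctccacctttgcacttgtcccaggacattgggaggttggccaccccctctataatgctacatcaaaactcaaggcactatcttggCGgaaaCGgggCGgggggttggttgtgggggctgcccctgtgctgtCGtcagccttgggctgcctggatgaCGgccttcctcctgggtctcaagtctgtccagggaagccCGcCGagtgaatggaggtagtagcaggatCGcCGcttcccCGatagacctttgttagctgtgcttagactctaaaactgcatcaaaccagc
Gnl3, chr14:31019082-31019381 (minus strand): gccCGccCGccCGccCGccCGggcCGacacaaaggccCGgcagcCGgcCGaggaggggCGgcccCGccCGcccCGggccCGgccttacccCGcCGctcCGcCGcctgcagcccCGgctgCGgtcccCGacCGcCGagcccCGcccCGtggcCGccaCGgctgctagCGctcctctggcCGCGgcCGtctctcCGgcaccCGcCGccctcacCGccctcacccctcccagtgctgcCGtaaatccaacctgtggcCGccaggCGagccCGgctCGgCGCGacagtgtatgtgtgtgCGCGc
The median member promoter held 21 CG dinucleotides and 60.7% G and C, close to the 20 and 60.3% of measured genes. Of the 8 measured members with CACGTG, 1 lay above 0, and of the 25 without it 10 did. Among all measured genes 557 of 1149 with CACGTG and 4399 of 8717 without it did. With median scaling Utp18, Utp20 and Mybbp1a of the 8 also lay above 0, as did Nolc1, Dkc1, Nhp2 and Nop10 of the 25. The 8 ranged from -0.43 (Nop2) to 0.03 (Rrn3), with a median of -0.11, and the 25 from -1.13 to 0.34, with a median of -0.09. Over all measured genes the medians were -0.03 with CACGTG and 0.005 without.

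Further genes of ribosome production were taken from lists that hold no member, and among them the factors of both subunits showed mostly small differences. Of 48 other small-subunit factors, 45 (93.8%) lay within 1.5-fold, beside 71.9% of all genes, with a median of 0.02. Rcl1, a protein of early small-subunit processing, was 1.89-fold lower (1736 in Th9+IFNgamma and 3286 in Th9), with -0.92 by both probes, and Utp14a, another processing factor, was 1.82-fold lower (538 and 981). Utp6 was 1.55-fold higher by its brighter probe (1671 and 1080) but had -0.46 by the other. All 50 measured other large-subunit factors lay within 1.5-fold. Their median was -0.13 with 38 of 50 below 0, beside 6188 of all 12272 genes. Under median scaling it was -0.02 with 29 of 50 below 0, where 59.1% of all genes lay above 0.

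Among 15 further polymerase I subunits and factors, 2 (13.3%) were at least 1.5-fold higher, beside 12.6% of all genes, and 1 (6.67%) lower, beside 15.5%. Polr1h, listed as Znrd1, a small subunit that takes part in RNA cleavage, was the highest, at 3620 in Th9+IFNgamma and 1434 in Th9 (2.52-fold higher), and its probes gave 1.34 and 1.16. Polr2k, a small subunit common to the nuclear RNA polymerases, was 1.90-fold higher (6191 and 3259). Polr1g, listed as Cd3eap, the partner of the Polr1e protein, was 1.66-fold lower (1980 and 3281). Of 13 assembly factors of snoRNPs and of ribosomal RNA modification, 3 (23.1%) were at least 1.5-fold higher, beside 12.6% of all genes, and 1 (7.69%) lower, beside 15.5%. Pih1d1 (5703 and 3449), Nufip1 (9689 and 6158) and Znhit3 (1183 and 777) were 1.65-fold, 1.57-fold and 1.52-fold higher, and Znhit6 (769 and 1223) was 1.59-fold lower. All of these bring box C/D particles together. Znhit3 fell short of 1.5-fold under 4 of the 11 alternative settings (0.55 with normexp), and Znhit6 with median scaling (-0.55). The 14 genes of the RNA exosome, which trims precursor ends, were all within 1.5-fold, beside 71.9% of all genes, with a median of 0.02.

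Cytosolic ribosomal proteins, the cargo of the assembly factors, sat lower than the listed genes, by a margin that depended on the scaling. Of 81 measured, 80 were below 0, with a median of -0.33, and median scaling left 80 below 0 with a median of -0.22. With quantile normalization 74 were below 0 and the median was -0.21, close to the -0.16 of the listed genes. The listed large-subunit factors had -0.24 under that setting, lower than the ribosomal proteins. Mitochondrial ribosomal proteins had a median of 0.07, with 49 of 78 above 0 (38 of 78 with quantile normalization). These 2 lists were taken by symbol, after the data had been seen. The listed ribosome biogenesis genes lay between them, at -0.10.

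**Figure D4:**
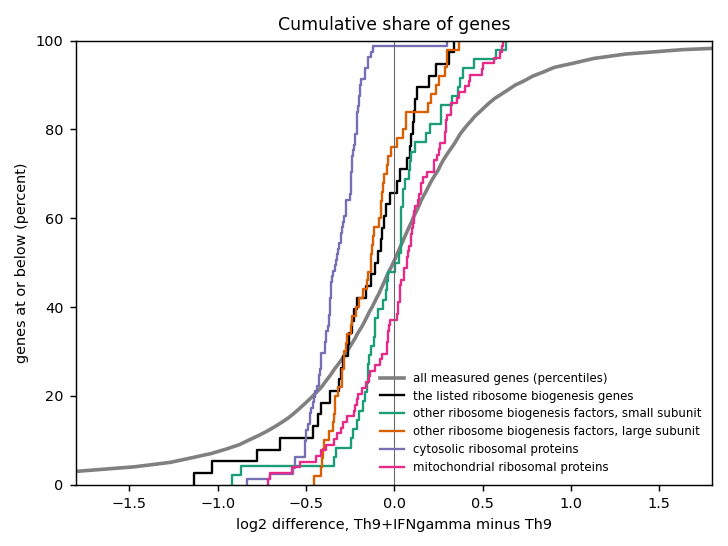
Cumulative share of genes (percent) against the log2 difference, Th9+IFNgamma minus Th9, for the 38 listed ribosome biogenesis genes (black), 4 related lists and the percentiles of all 12272 measured genes (grey). The listed genes rise more steeply than all genes, cross 0 with 25 of 38 genes below it, and lie between cytosolic (median -0.33) and mitochondrial (median 0.07) ribosomal proteins.

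Among 11 measured factors of the network around Myc, 6 (54.5%) lay within 1.5-fold, beside 71.9% of all genes. At least 1.5-fold higher were 2 (18.2%, beside 12.6%) and lower 3 (27.3%, beside 15.5%). Max, the obligate partner of Myc and of its antagonists, read 32825 in Th9+IFNgamma and 9759 in Th9 (3.36-fold higher, 1 probe, log2 difference 1.65 to 1.86 over the settings). Mxd3, a repressor that dimerises with Max, read 4234 and 1300 (3.26-fold higher), both probes being past 2-fold the same way. Other members of the same repressor family were lower, Mxd4 at 597 and 1351 (2.26-fold lower) and Mxi1 at 1769 and 2937 (1.66-fold lower). Fbxw7, a ubiquitin ligase subunit that targets Myc protein for destruction, read 875 and 1374 (1.57-fold lower), short of 1.5-fold with median scaling (-0.54) and by the probe of smallest difference (-0.56). The other 6 measured factors were within 1.5-fold, among them the repressors Mxd1 (5512 and 3942, where another probe gave 1.03) and Mnt (4698 and 5950). Mycl, a relative of Myc, was well above background on the Th9 array alone, at 64.2. On the Th9+IFNgamma array it read 12.7, which is 5.04-fold lower but not well above background, so that fold is uncertain. Mycn was dim on both arrays (16.1 and 13.8).

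**Figure D5:**
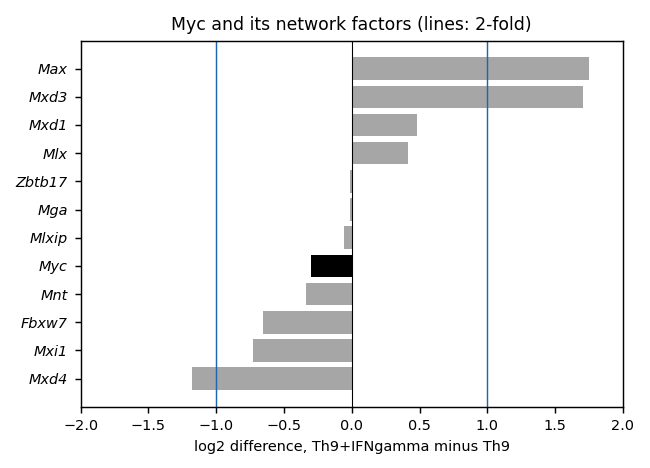
Log2 difference (Th9+IFNgamma minus Th9) of Myc (black) and of 11 factors of its network measured on both arrays (grey), with lines at 2-fold. Max (1.75) and Mxd3 pass the upper line and Mxd4 (-1.18) the lower, while Myc lies at -0.30.

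Of 31 measured Myc target genes outside the nucleolus, 27 lay within 1.5-fold and 4 (12.9%) were higher by 1.5-fold or more, a share near the 12.6% of all genes. The 4 were Mthfd2, an enzyme of mitochondrial folate metabolism (2080 and 1267), the amino acid transporter chains Slc7a5 (2572 and 1608) and Slc3a2 (15860 and 10036), and Odc1, the first enzyme of polyamine synthesis (62352 and 41002). Odc1 fell short of 1.5-fold under 3 alternative settings (0.54 with quantile normalization, 0.56 with normexp), and Slc3a2 with quantile normalization (0.56). None was at least 1.5-fold lower, and the median was 0.06.

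Defining T cell markers were present. All 10 T cell markers with a probe, of 12 listed, were well above background on both arrays, among them Cd3e (1789 in Th9+IFNgamma and 1544 in Th9) and Cd4 (502 and 444). They did not move one way, 6 being higher and 4 lower in Th9+IFNgamma, from Cd2 (1.55-fold lower) to Cd5 (1.58-fold higher). Among B cell markers, 4 of 8 were above background in Th9+IFNgamma and 6 of 8 in Th9, with summed signals of 959 and 1370, and Pax5 was not above background. Myeloid and dendritic markers summed to 189 and 376, with 6 of 12 above background and Lyz2 and Itgam not. Adgre1 held most of that gap (25.8 and 186), and without it the sums were 163 and 190. Natural killer markers summed to 3975 and 3730, of which Eomes held 2486 and 88.3 and Gzma 1448 and 3522, while Ncr1 was not above background. Cd8a read 1338 and 1074, erythroid markers summed to 217 and 94.6, and mast cell and basophil markers to 70.6 and 48.9. Their part in the differences was not tested, and in bulk RNA fewer cells of a type and less RNA per cell cannot be told apart. No spot was saturated, and 60.6% and 59.9% of probes were well above background.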

How the data were processed

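Per the labels, total RNA (500 ng) was amplified and labelled with Cy3. Intensity values that the authors deposited come from Feature Extraction (Agilent; the file headers give version 10.7.3.1, and 10.7 stands in the submitters' processing notes). These processed intensities are background-subtracted and detrended within an array and were deposited without scaling between arrays. The log2 table that the authors deposited equals log2 of a probe's median processed signal minus 9.30 for Th9+IFNgamma and 9.15 for Th9 (column medians -4.05 and -3.93), the arrays' 75th percentiles of about 632 and 567. Its scale, centring and direction are thus known.

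Here, log2 processed signals were averaged over a probe's spots, without control and outlier spots, and each array was set to a common 75th percentile (598.6). A gene is read by its brightest probe well above background on both arrays. Probes were named by matching accessions to RefSeq (GRCm38.p6), which named 27050 of 41171 probes (65.7%). The headers name another build for the array, and coordinates belong to the RefSeq promoter table alone. Older symbols were used for Polr1f, Polr1g and Polr1h. Differences were set against limits of 1.5-fold and 2-fold. For a gene above background on 1 array, the fold was taken against the higher of the dim array's lowest signal above background and the dim probe's own. Such a fold is no strict lower limit. The calculations were checked on simulated arrays. Alternatives were 4 other scalings, normexp (limma 3.58.1, R 4.3.3, offset 50, on median spot signals, the files used here having no mean signal), the deposited log2 table, 2 other probe rules, 2 filters and outlier spots kept.

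Members and lists were chosen with earlier results of these data known. Values are given in full for Myc, members at least 1.5-fold apart and the brightest and most different of each role, others more briefly, and from each other list up to 4 genes in each direction are named among those at least 1.5-fold apart. Mxd1, Mnt, Mycl and Mycn were named after their values were seen. The number of arrays limits the precision.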

Additional observations from a re-analysis of the deposited data

How the results depend on the processing

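Median scaling adds the same 0.115 to every log2 difference, just past the spot SD of 0.106, so nearly all medians and single values move with it by construction. Under it the log2 median of the listed genes was 0.014, 20 of 38 were higher in Th9+IFNgamma, 1 was at least 2-fold lower and Myc had -0.19. The medians of the other lists were then 0.13 for small-subunit factors, -0.020 for large-subunit factors, 0.18 for polymerase I factors, 0.28 for snoRNP assembly factors, 0.13 for the exosome, 0.099 for the Myc network and 0.17 for Myc targets outside the nucleolus. The count at least 2-fold lower was 0 with normexp and 1 with the probe of smallest difference, and the count at least 1.5-fold higher was 1 with the mean of probes (Pes1). CACGTG before the start alone was found in 3 of 35 members (8.57%, beside 6.86% of all promoters). Of 156 comparisons of a summary value with its alternative, 15 moved by more than the SD of 0.106 or, for counts, by over 1.5 times. Among single members 56 of 407 did so. Median scaling made 11 of the 15 and 37 of the 56, and the other 3 scalings moved none of the summary values and 1 single member by that limit. The median of the listed genes was -0.16 with quantile normalization and with loess, beside -0.10 in the main setting. Over all settings 15 members stayed below 0, 9 stayed above 0 and 14 changed sign. No paired analysis was possible because each culture has 1 array.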

Other observations

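Rrp1, the relative of Rrp1b and chosen after its value was seen, was 1.28-fold lower in Th9+IFNgamma (12164 against 15625), beside 2.19-fold for Rrp1b.

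CACGTG within the first 50 transcribed bases also stood in 5 of 38 other small-subunit factors (13.2%), 4 of 43 other large-subunit factors (9.30%) and 2 of 14 other polymerase I factors (14.3%), beside 1 of 29 Myc targets outside the nucleolus (3.45%) and 1.28% of all genes. It stood there in 0 of 10 snoRNP assembly factors, 0 of 12 exosome genes and 0 of 13 Myc network factors. This window was chosen after the positions in the listed genes had been seen. In the whole promoter window CACGTG stood in 11 of 29 Myc targets outside the nucleolus (37.9%) and 4 of 13 Myc network factors (30.8%). Both shares were above the 25.7% of listed genes. It stood in 9 of 38 other small-subunit factors (23.7%), 7 of 43 large-subunit factors (16.3%) and 2 of 14 polymerase I factors (14.3%). Exosome genes had 1 of 12 (8.33%) and snoRNP assembly factors 0 of 10. A second motif, TTCNNNGAA, the site to which interferon-activated STAT factors are known to bind, stood in the promoters of 5 of 35 listed genes (14.3%) and 9.55% of all genes. Of the measured genes 8.47% held it. It reads the same on both strands and does not contain CACGTG.

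Chromosome 11 holds 7 of the 35 listed genes with a promoter (20%), beside 8.79% of measured genes. It was not a planned comparison, and the shares of other chromosomes are not given. No use was made of chromosome position in any other comparison.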
